A study of Mus musculus with 6 samples.

Results

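Thrsp and 8 genes of fatty acid synthesis were followed in mouse skin around a subcutaneous pump. The genes were Thrsp, Fasn, Acly, Acaca, Scd1, Scd2, Elovl6, Me1 and Srebf1, and every probe set whose platform annotation names only 1 of them was taken, which gave 19 of 22690 probe sets and 9 of 12393 genes. They were picked by name with their signals on all 6 arrays already known, so their differences are given as a description without a test. The mice were C57BL/6 and carried a pump that released its content into the skin for 7 days. Skin at the pump outlet was taken under TGF-beta (2 arrays, from mouse 1 and mouse 2), IL-13 (1 array) and TSLP (1 array). Under PBS, abdominal skin far from the outlet (PBS distal, 1 array) and skin at the outlet (PBS local, 1 array) were taken. All groups had the pump, and the labels give neither the age nor the sex of the mice, nor whether distal and local PBS skin were taken from 1 mouse. The arrays were Affymetrix arrays of total RNA from whole skin, and the skin keratin Krt10 was bright on all of them, between 12656 and 18937 signal units. In such bulk RNA, fewer cells of a type and less RNA per cell cannot be told apart.

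Fatty acid synthesis turns citrate into fatty acids in the cytosol. Acly cleaves citrate to acetyl-CoA, Acaca carboxylates it to malonyl-CoA, Fasn joins these units into palmitate with NADPH that Me1 helps to supply, and Elovl6, Scd1 and Scd2 lengthen and desaturate the product. Srebf1 encodes the transcription factor SREBP-1 that drives these genes, and Thrsp (Spot 14) encodes a small protein of lipogenic tissues that responds to thyroid hormone and feeding. In skin, the fat cells of the dermis and subcutis and the sebaceous glands are the known sites of high lipid synthesis.

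The sequences before the start sites of Thrsp and Fasn are shown because these genes had the highest signals under TSLP relative to PBS local, and that of Elovl6 because it did not. Each is the 250 bases upstream of the start site from RefSeq (GRCm38.p6), written 5′ to 3′ on the gene's strand, with matches to CCAAT on either strand in capitals (CCAAT itself, or its complement ATTGG). Thrsp lies at chr7:97417551-97417800 on the minus strand, Fasn at chr11:120824548-120824797 on the minus strand and Elovl6 at chr3:129532136-129532385 on the plus strand.
Thrsp: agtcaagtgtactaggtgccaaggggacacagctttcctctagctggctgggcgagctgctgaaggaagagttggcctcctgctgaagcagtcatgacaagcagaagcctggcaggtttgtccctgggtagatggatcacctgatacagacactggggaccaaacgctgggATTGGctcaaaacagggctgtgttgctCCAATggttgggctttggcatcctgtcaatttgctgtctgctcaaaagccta
Fasn: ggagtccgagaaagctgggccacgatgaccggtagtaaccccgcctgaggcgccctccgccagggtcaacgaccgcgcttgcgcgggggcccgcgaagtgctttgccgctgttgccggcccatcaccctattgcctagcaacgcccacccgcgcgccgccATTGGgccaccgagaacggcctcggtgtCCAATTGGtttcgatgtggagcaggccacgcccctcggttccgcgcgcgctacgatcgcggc
Elovl6: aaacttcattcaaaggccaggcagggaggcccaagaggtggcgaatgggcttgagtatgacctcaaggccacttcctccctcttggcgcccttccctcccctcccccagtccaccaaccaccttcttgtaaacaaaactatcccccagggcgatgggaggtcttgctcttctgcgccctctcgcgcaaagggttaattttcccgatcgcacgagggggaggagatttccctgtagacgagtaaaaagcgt
Thrsp had an inverted CCAAT match at 79 to 75 bases before the start site and a forward one at 52 to 48 bases. Fasn had an inverted match at 90 to 86 bases, a forward one at 62 to 58 bases and an inverted one at 59 to 55 bases, of which the last 2 share bases. Elovl6 had no match in this window. CCAAT is the sequence bound by the factor NF-Y, and 33.8% of 32851 upstream windows of the same length held it on either strand. Of 10 such windows of 7 of the genes, 5 held CCAAT and 4 the GC box GGGCGG, against 32.7% of all windows for the GC box. CCAAT was also in windows of Me1 and Srebf1, whose log2 differences from PBS local under TSLP were 0.01 and -0.02. The window of Acly, with a difference of 0.11, held none. A relation of CCAAT to the TSLP signals was not tested. CACGTG (6.02% of all windows) and TATAAA (12.4%) were also searched on both strands and had 0 matches in the 10 windows. A match is a description of the letters and not a binding site.

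Values are signals, in the linear units of the deposited table, and differences are in log2(signal + 27.4), which compresses differences between low signals. Each gene was represented by its probe set with the highest mean. Genes were compared where 1 or more of the arrays involved reached a signal of 165, the median of all values. Of the 9 genes, 8 did so on all 6 arrays, and Acaca did so on none. Its only probe set read 25.5 and 16.9 in the TGF-beta mice, 21.3 under IL-13, 24.5 under TSLP, 38.9 in PBS distal and 22.1 in PBS local, too dim to compare.

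Thrsp varied most of the genes. Its brighter probe set read 1109 and 824 in TGF-beta mice 1 and 2, 436 under IL-13, 2489 under TSLP, 1367 in PBS distal and 689.8 in PBS local. TSLP skin was therefore the highest and IL-13 skin the lowest, with PBS distal second and the TGF-beta mice between it and PBS local. Against PBS local the difference was 0.66 and 0.25 in the TGF-beta mice, -0.63 under IL-13, 1.81 under TSLP and 0.96 in PBS distal. The other probe set gave the same order of arrays, with 437 and 365 in the TGF-beta mice, 189 under IL-13, 996 under TSLP, 501 in PBS distal and 268 in PBS local. TSLP over PBS local was a signal ratio of 3.61 with one probe set and 3.72 with the other, and PBS distal over PBS local was 1.98 and 1.87. The TGF-beta mice averaged 967 ± 202 (SD, n = 2) on the brighter probe set, and their mean difference from PBS local of 0.46 stood beside an SD of 0.30 between the mice. No other group has a replicate.

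Of the 8 genes compared, Thrsp was the only one past a size rule of 2-fold against PBS local, and only under TSLP. There 1 of 8 was at least 2-fold higher, beside 0.998% of 7614 genes, and 0 of 8 at least 2-fold lower, beside 0.447%. Under IL-13 0 of 8 passed in either direction, beside 1.12% of 7562 genes higher and 0.41% lower. In PBS distal, Thrsp at 0.96 stood just under the rule, and 0 of 8 passed, beside 0.788% of 7617 genes higher and 3.51% lower. Under TGF-beta 0 of 8 passed in both mice, beside 0.181% of 7741 genes higher and 0.155% lower. limma, fitted across all genes and taking its error from the TGF-beta pair, called 0.0% of the 7741 genes between TGF-beta and PBS local at an adjusted p under 0.05, while 355 had an unadjusted p under 0.05. The medians of the 8 genes were -0.08 under TGF-beta, -0.08 under IL-13, 0.02 under TSLP and 0.40 in PBS distal, and those of all genes compared were -0.05, -0.07, -0.01 and -0.01. The genes were picked with these values known, and nothing is read from the counts.

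**Figure D1:**
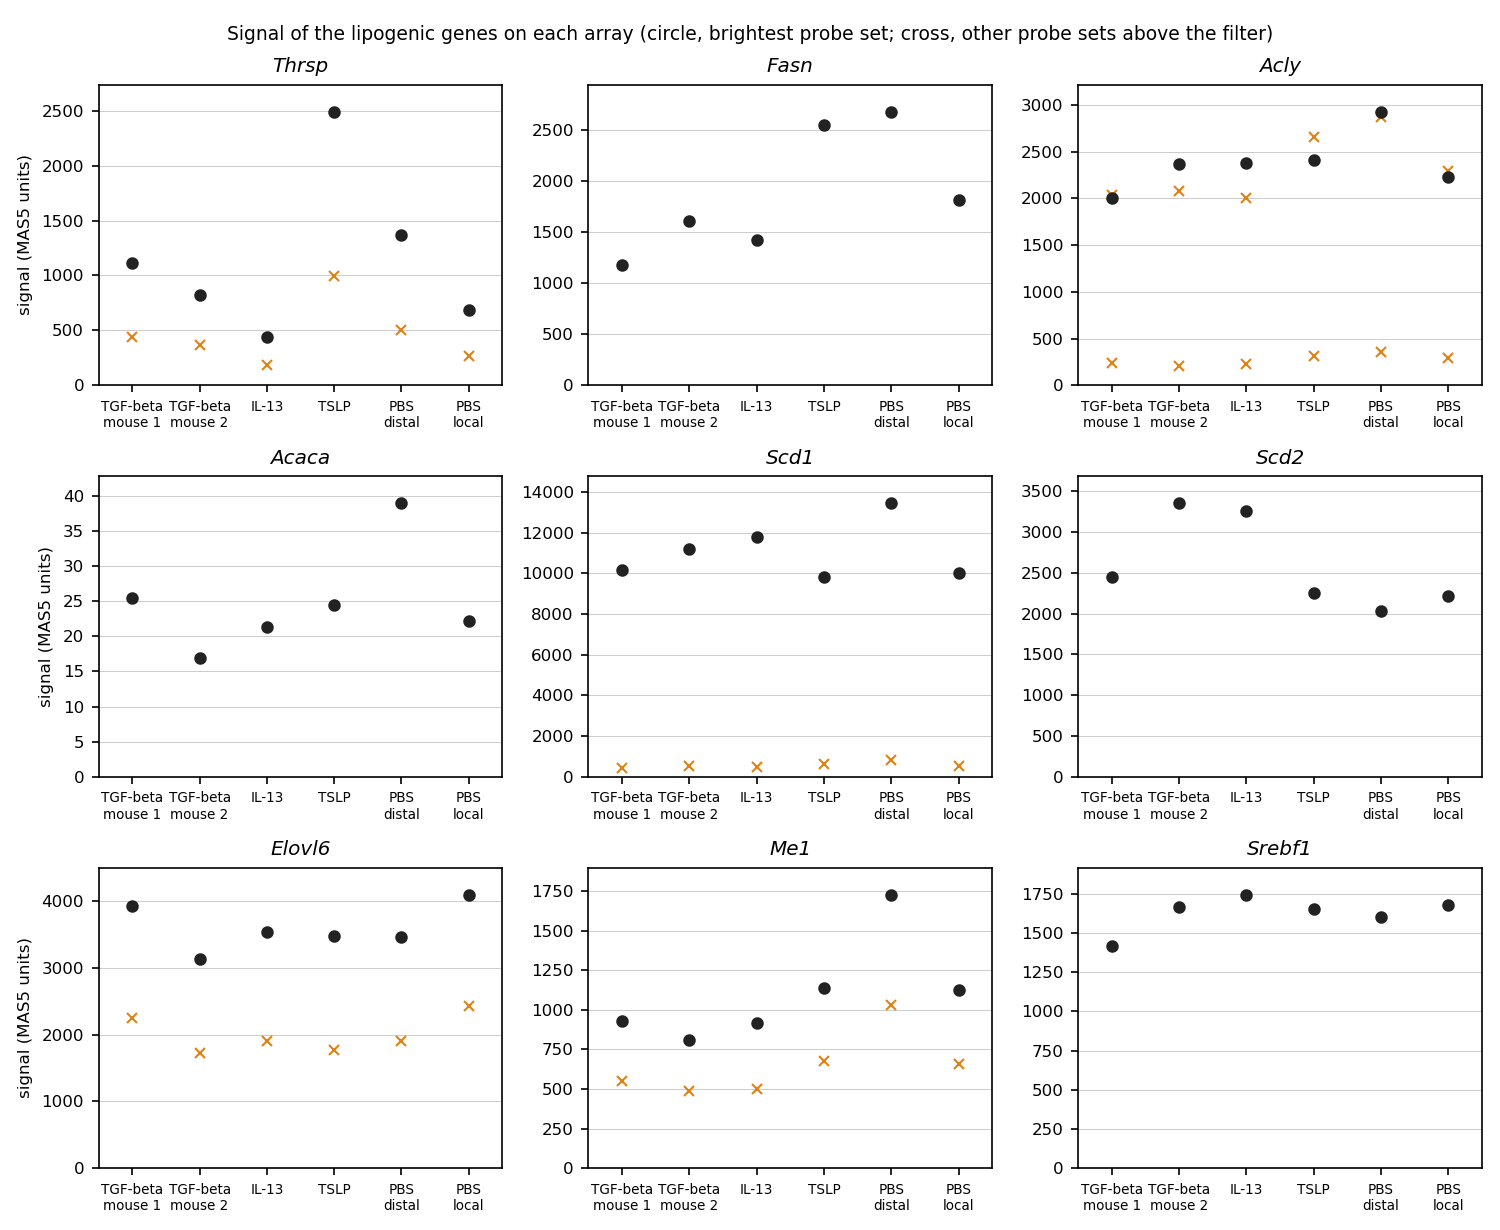
Signal of each gene (vertical axis, linear MAS5 units, from 0) on the 6 arrays (horizontal axis); circles are the brightest probe set and crosses the other probe sets that reached 165, and each point is 1 array. Thrsp stands at 2489 under TSLP and 436 under IL-13, whereas Srebf1 keeps between 1416 and 1744.

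Fasn, the synthase itself, followed the order of Thrsp among IL-13, PBS local and TSLP with a smaller spread. Its probe set read 1176 and 1611 in the TGF-beta mice, 1420.5 under IL-13, 2550.3 under TSLP, 2679.5 in PBS distal and 1813 in PBS local. TSLP and PBS distal lay above PBS local, by 0.49 and 0.56, and IL-13 lay below it, by -0.35. The TGF-beta mice parted from Thrsp, since Fasn stood below PBS local in both, at -0.61 and -0.17, and Thrsp above it in both. Their mean difference of -0.39 stood beside an SD of 0.31 between the mice.

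Of the genes that supply Fasn, the brightest probe set of Acly differed less from PBS local than Fasn did on every array, whereas Me1 differed more than Fasn in PBS distal and in TGF-beta mouse 2. Acly read 2004 and 2369.6 in the TGF-beta mice, 2379 under IL-13, 2407 under TSLP, 2924 in PBS distal and 2228 in PBS local. PBS distal was thus the highest, with a difference of 0.39, and the other arrays differed from PBS local by -0.15 to 0.11. A second bright probe set of Acly put the TGF-beta mice at -0.17 and -0.14, IL-13 at -0.19, TSLP at 0.21 and PBS distal at 0.32. The dimmest of the measured ones put them at -0.29 and -0.45, -0.34, 0.08 and 0.26. TSLP and PBS distal were thus above PBS local with all 3 probe sets, while the signs in TGF-beta mouse 2 and under IL-13 depended on the probe set, with 2 of the 3 below PBS local. The other 2 of the 5 probe sets never reached 165. Me1, the cytosolic malic enzyme, read 927 and 811 in the TGF-beta mice, 920.0 under IL-13, 1136 under TSLP, 1725 in PBS distal and 1124 in PBS local. Me1 was 0.61 higher in PBS distal and, under TSLP, at 0.01 (-0.01 after quantile normalization), and lower in both TGF-beta mice (-0.27 and -0.46) and under IL-13 (-0.28). Its other probe set gave 0.63 for PBS distal and 0.04 for TSLP.

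The desaturases were bright, and they differed in PBS distal, where Scd1 was highest, as Fasn was, and Scd2 lowest. Scd1, the main stearoyl-CoA desaturase of skin, read 10141 and 11204 in the TGF-beta mice, 11767 under IL-13, 9842 under TSLP, 13441 in PBS distal and 10025 in PBS local. Its mean signal was at the 99.4th percentile of all probe sets, and the second, dimmer probe set gave 432 and 532, 500.1, 619, 813 and 542 in the same order of arrays. Both probe sets were higher in PBS distal, by 0.42 and 0.56, but had opposite signs under IL-13 (0.23 and -0.11) and under TSLP (-0.03 and 0.18), and quantile normalization also turned the bright probe set's sign under TSLP (0.18) and under TGF-beta (-0.13). The dimmer probe set had the sign of Fasn on all 5 arrays, and the bright one had it in PBS distal only. Scd2, a close relative of Scd1, read 2452 and 3351 in the TGF-beta mice, 3257 under IL-13, 2254 under TSLP, 2029.5 in PBS distal and 2212 in PBS local. It was higher in TGF-beta mouse 2 (0.59) and under IL-13 (0.55). It was lowest in PBS distal, the array where Fasn, Acly, Scd1 and Me1 were highest, but only slightly below PBS local there (-0.12). Its other 2 probe sets never reached 165.

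Elovl6 and Srebf1 were the steadiest. Elovl6, which elongates palmitate, read 3921 and 3125 in the TGF-beta mice, 3531 under IL-13, 3484 under TSLP, 3460.1 in PBS distal and 4092 in PBS local. PBS local was the highest array, and the differences of the others from it ran from -0.06 to -0.39. The other probe set of Elovl6 also had PBS local highest, with differences of -0.11 to -0.49. Srebf1 read 1416 and 1665 in the TGF-beta mice, 1744 under IL-13, 1655 under TSLP, 1603 in PBS distal and 1681 in PBS local. All 6 arrays lay within 1.23-fold of each other.

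**Figure D2:**
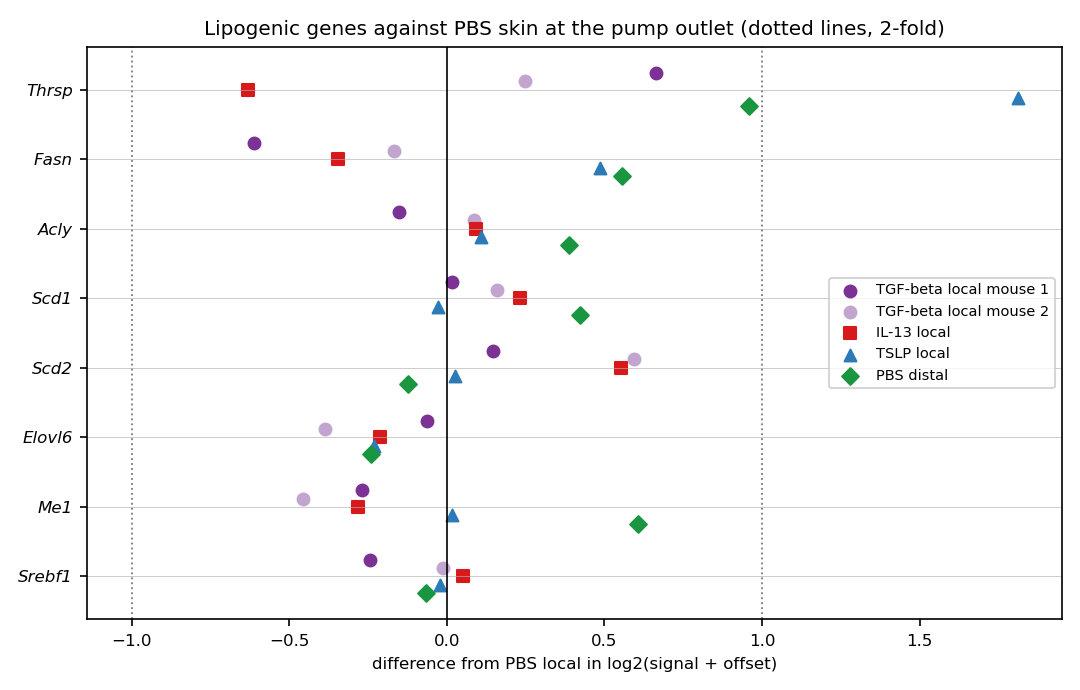
Difference of each array from PBS local in log2(signal + 27.4) (horizontal axis) for the 8 genes that passed the filter (rows); dotted lines mark 2-fold, and each point is 1 array. Thrsp under TSLP at 1.81 is the only point past 2-fold, and the points of Srebf1 lie between -0.24 and 0.05.

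TSLP and IL-13 skin were farthest apart in Thrsp. By the brightest probe sets, TSLP over IL-13 was a signal ratio of 5.71 for Thrsp and 1.80 for Fasn, 1.24 for Me1, 1.01 for Acly, 0.987 for Elovl6, 0.949 for Srebf1, 0.836 for Scd1 and 0.692 for Scd2. The dimmer Scd1 probe set went the other way, with 619 under TSLP and 500.1 under IL-13. For Acly the other measured probe sets differed more, with 2656 against 2005 and 315 against 228. Those of Thrsp, Me1 and Elovl6 kept the direction. In this pair 1 of 8 was at least 2-fold higher, beside 0.82% of 7558 genes, and 0 of 8 at least 2-fold lower, beside 0.556%. Over all 6 arrays the highest and lowest stood at least 2-fold apart in 3 of the 8 (Thrsp, Fasn and Me1), beside 15.3% of 7945 genes, and 163 of these genes (2.05%) spread at least as widely as Thrsp at 2.44.

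PBS distal skin was set against the range of all 5 outlet arrays, whose treatments differ. Fasn, Acly, Scd1 and Me1 were above every outlet array, 4 of 8, beside 26.8% of 7945 genes, and Scd2 was below every one, 1 of 8, beside 24.9%. Me1 had the clearest gap, with 1725 in PBS distal against 811 to 1136 at the outlet. For Fasn the gap was small, with 2679.5 in PBS distal against a highest outlet value of 2550.3 under TSLP. Thrsp, Elovl6 and Srebf1 in PBS distal lay inside the outlet range. With 1 distal array, body site, distance from the pump and the mouse cannot be told apart.

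Across the 6 arrays, which share 1 scaling and hold 5 different groups, Pearson's r between pairs of the 8 genes had a median of 0.08 over 28 pairs, from -0.82 to 0.81. The highest were 0.81 for Acly and Scd1, 0.79 for Fasn and Acly, 0.78 for Fasn and Me1 and 0.74 for Acly and Me1, and Spearman's rho of these pairs was 0.37, 0.77, 0.77 and 0.54. Fasn had r of 0.29 with Scd1 and -0.60 with Scd2, and the lowest of all was Scd2 with Me1. All these r used the brightest probe set of each gene. The dimmer Scd1 probe set was highest in PBS distal (813) and next under TSLP (619), as Fasn was, and its r was not computed. Thrsp had r of 0.63 with Fasn, 0.44 with Me1, 0.22 with Acly and -0.62 with Scd2. The second bright probe set of Acly was, like Thrsp, lowest under IL-13 and above PBS local under TSLP (0.21) and in PBS distal (0.32). Unlike Thrsp, it was below PBS local in both TGF-beta mice, and its r was not computed. These are descriptions over 6 arrays and have no p.

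Lists of other lipid genes were set beside Thrsp. The citrate, acetyl-CoA and NADPH supply list had 0 of 10 past 2-fold in each comparison, with medians of 0.02 under TGF-beta, 0.03 under IL-13, 0.03 under TSLP and 0.27 in PBS distal, and its brightest members Tkt, Mdh1 and Cs were at 0.04, 0.23 and -0.08 under TSLP. Other elongases and desaturases had medians of 0.08, 0.03, -0.11 and 0.47 in the same order, with 0 past 2-fold, and Elovl1, Elovl4 and Elovl5 were at 0.63, 0.60 and 0.55 in PBS distal. Genes of cholesterol synthesis and uptake, which respond to the related factor SREBP-2, had medians of -0.18, -0.12, -0.16 and 0.42, and 0 passed 2-fold. Of these, 14 of 15 were below PBS local under TSLP and 15 of 16 above it in PBS distal, where Hmgcs1 was at 0.33, Fdps at 0.47 and Fdft1 at 0.63. Under TSLP the highest of them stood at 0.11, against 1.81 for Thrsp. The medians of all genes compared were -0.01 under TSLP and -0.01 in PBS distal. The share of all genes in each direction was not counted, so the direction counts of this list have no background beside them.

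Triglyceride synthesis and lipid droplet genes had medians of -0.28 under TGF-beta, -0.25 under IL-13, -0.03 under TSLP and 0.25 in PBS distal, and 1 of 12 passed 2-fold, Cidec, a droplet protein of fat cells, with 240.4 under IL-13 against 509 in PBS local. The bright members Gpam, Bscl2 and Plin2 were at -0.23, -0.03 and -0.03 there. Of 13 measured lipogenic regulators, Mlxipl, which encodes the sugar-sensing factor ChREBP, was the only one past the rule, at -1.09 under IL-13. It read 207 and 166 in the TGF-beta mice, 162 under IL-13, 340.2 under TSLP, 395 in PBS distal and 375 in PBS local. The TGF-beta mice and IL-13 were thus low for Mlxipl, while TSLP (-0.13) and PBS distal (0.07) were near PBS local. Thrsp differed from this in both TGF-beta mice, where it was above PBS local, and under TSLP, where it was at 1.81. Mid1ip1, the relative of Thrsp, was at -0.45 and 0.05 in the TGF-beta mice, -0.32 under IL-13, -0.06 under TSLP and 0.03 in PBS distal, Insig2 was at 0.01, 0.20, 0.20, -0.05 and 0.40, and Irs1 was at 0.20, -0.03, -0.01, 0.12 and 0.37. The list's medians were -0.11, -0.17, -0.05 and 0.12.

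Lipolysis and fatty acid oxidation genes had medians of -0.21 under TGF-beta, -0.29 under IL-13, 0.03 under TSLP and 0.07 in PBS distal, and 1 of 14 passed 2-fold, Pdk4, a brake on pyruvate oxidation, at -1.33 under IL-13. Acadm, Acadl and Hadhb were at -0.26, -0.42 and 0.18 there. The 8 genes of fatty acid uptake and binding had medians of 0.12, 0.02, 0.07 and 0.31 with 0 past 2-fold, and Lpl, Fabp4 and Fabp5 were at 0.21, -0.04 and -0.01 under TSLP.

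Several fat cell markers were, like Thrsp, high under TSLP and in PBS distal and low under IL-13. Of the 14 white adipocyte markers on the array, 12 reached 165 on some array. In median they stood at -0.03 under TGF-beta, -0.36 under IL-13, 0.30 under TSLP and 0.45 in PBS distal. Above PBS local were 10 of 12 under TSLP and 11 of 12 in PBS distal, and 9 of 11 were below it under IL-13. The medians of all genes compared were -0.01, -0.01 and -0.07 in these comparisons, and the share of all genes in each direction was not counted. Lep is among the 12 only through TSLP (232) and PBS distal (208), so the filter favoured its sign there. Adipoq, the fat cell hormone adiponectin, read 4314 and 3474 in the TGF-beta mice, 3127 under IL-13, 5420.5 under TSLP, 7359 in PBS distal and 3954 in PBS local. PBS distal was the highest for Adipoq, whereas TSLP was the highest for Thrsp. The difference of Adipoq under TSLP was 0.45, and the highest of the 12 markers, Lep, stood at 0.72, against 1.81 for Thrsp. Cidec was at 0.30 under TSLP, Pck1 was at 0.15 under TSLP, -0.61 under IL-13 and 1.29 in PBS distal, and the very bright Fabp4 and Car3 were at -0.04 and -0.24 under TSLP. The summed signal of the list was 45960.3 and 38780.5 in the TGF-beta mice, 37475 under IL-13, 37374 under TSLP, 45891 in PBS distal and 37611 in PBS local. Fabp4 and Car3 made up most of this sum, with 11430 and 14048 under TSLP and 11773 and 16612 in PBS local. The sum therefore says little about the other markers. The part of fat cell content in the Thrsp values was not tested.

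Of the brown adipocyte list, Ucp1, its defining gene, was at a signal of 1.88 to 7.31 on all 6 arrays. Cox7a1 and Cox8b, muscle and brown fat forms of cytochrome oxidase subunits, were at 0.79 and 0.45 under TSLP and -0.83 and -0.79 under IL-13, and Cidea was at -0.22 and -0.28; the list's medians were -0.35 under TGF-beta, -0.28 under IL-13, 0.24 under TSLP and 0.42 in PBS distal. The 4 measured sebaceous gland markers were at -0.32, -0.37, -0.32 and 0.32 in median, and Scd3, Krt79 and Acsbg1 were at -0.36, -0.41 and -0.28 under TSLP. Of 11 mammary epithelium genes only Epcam reached 165, at -0.33 under TSLP, and the milk protein gene Csn2 stayed at 6.86 to 10.7 on all arrays. Keratinocyte genes had medians of -0.11, -0.18, -0.25 and 0.41, with Krt15, Krt10 and Lor at 0.47, 0.36 and 0.41 in PBS distal, and Flg at 1.54 there.

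**Figure D3:**
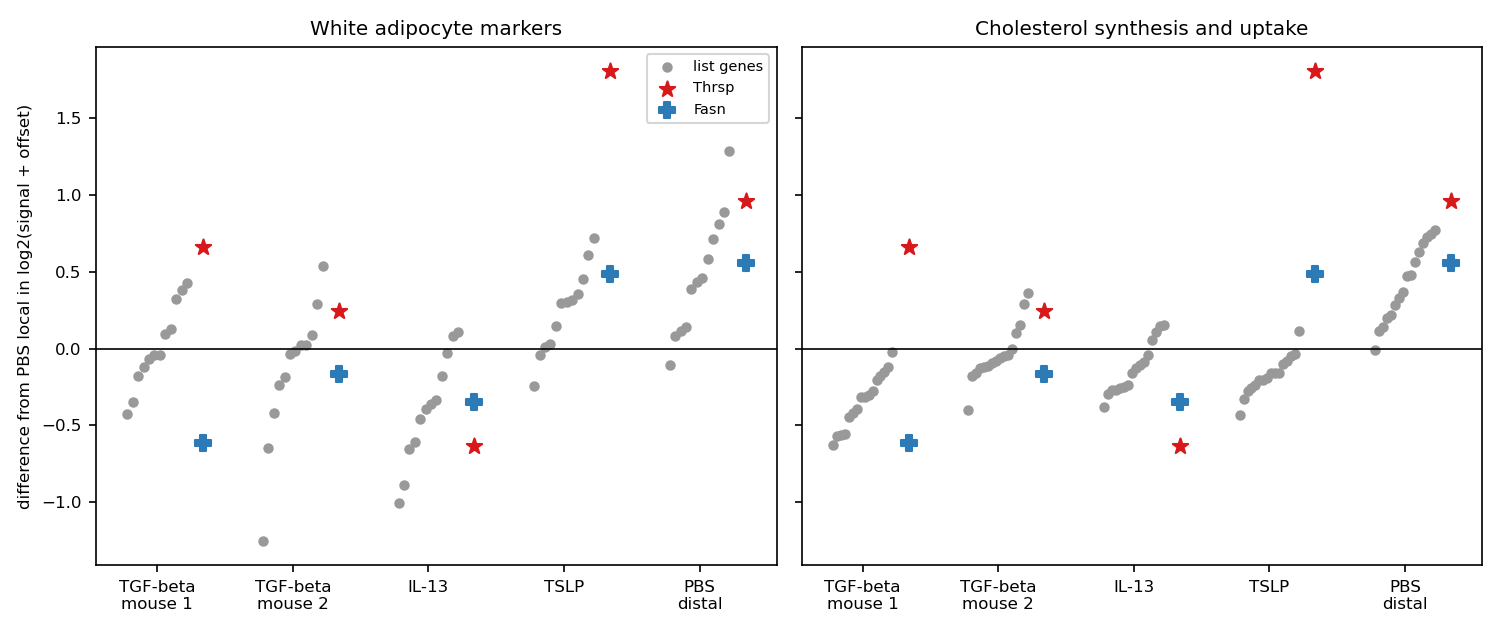
Difference from PBS local in log2(signal + 27.4) (vertical axis) on 5 arrays (horizontal axis) for the white adipocyte markers that reached 165 (left, grey points, 1 per gene) and the genes of cholesterol synthesis and uptake (right), with Thrsp as a star and Fasn as a cross. Under TSLP the star at 1.81 stands above all grey points, the highest of which are 0.72 and 0.11. The point at 0.72 is Lep, which reached 165 only under TSLP and in PBS distal.

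Other cell type lists ordered the arrays differently from Thrsp. Exocrine pancreas genes summed to 2195 and 13227 in the TGF-beta mice, 18799 under IL-13, 15666 under TSLP, 988 in PBS distal and 5444 in PBS local, so the arrays with the lowest and the highest Thrsp were both high in them. Hair follicle genes summed to 356 and 42517 in the TGF-beta mice, 2841 under IL-13, 292 under TSLP, 1596 in PBS distal and 289 in PBS local. Array medians ran from 160.2 to 171 before scaling. Medians under TSLP were -0.24 for fibroblast, -0.26 for skeletal muscle, 0.23 for endothelial, 0.02 for macrophage and 0.44 for neutrophil genes. In PBS distal they were -0.24, 0.20, -0.54, -0.36 and -2.22. Under TGF-beta they were 0.11, -0.13, 0.25, 0.02 and 0.10, and under IL-13 0.16, -0.21, -0.34, 0.20 and 0.32. The endothelial list thus had the signs of Thrsp under TGF-beta, IL-13 and TSLP, and the opposite sign in PBS distal.

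Among 1211 other genes whose arrays spread at least 2-fold, those most like Thrsp by Pearson's r over the 6 arrays were Klf15 (0.92), Gbp6 (0.91), BC023105 (0.91), Adamtsl4 (0.90), Tcea3 (0.90), Sult1a1 (0.89), Gpd1 (0.88), Per3 (0.87), Sln (0.84) and Grb14 (0.84). All 10 were higher under TSLP than in PBS local, by 0.47 (Sult1a1) to 2.27 (BC023105). Thrsp was itself highest under TSLP, so picking genes by r with it favoured this direction, and nothing is read from it. Gbp6 read 416 under TSLP and 97.2 to 152 on the other arrays. BC023105 read 262 under TSLP and 31.2 to 120 on the others. Both thus reached the filter signal on the TSLP array only. Klf15 (233 and 193) and Grb14 (354 and 321) reached it only under TSLP and in PBS distal, the arrays where Thrsp was highest. Gpd1, which makes the glycerol backbone of triglycerides, was at 0.61 under TSLP and -0.46 under IL-13, and Klf15, a transcription factor of metabolic tissues, at 0.68 and -0.50. Per3, a circadian clock gene, was at 0.56 and 0.30 in the TGF-beta mice, -0.06 under IL-13, 1.06 under TSLP and 0.16 in PBS distal. Gbp6, a guanylate-binding protein, was at 1.83 under TSLP. The least like were Plod2 (-0.93), a collagen hydroxylase, Nme1 (-0.92), Hbegf (-0.86), Chrna1 (-0.86) and Cyp7b1 (-0.82). These are the extremes of 1211 genes over 6 arrays, given as a description with no p.

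**Figure D4:**
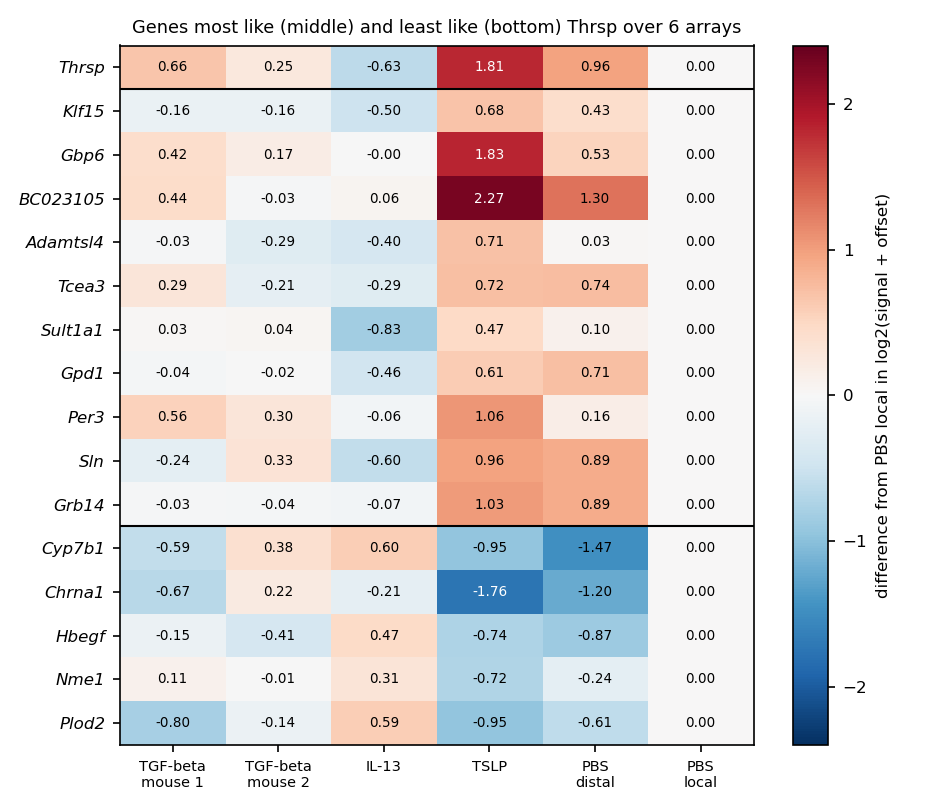
Differences from PBS local in log2(signal + 27.4), written in each cell and coloured, on the 6 arrays (columns) for Thrsp (top row), the 10 genes most like it (middle) and the 5 least like it (bottom). The TSLP column is positive for all 10 and reaches 2.27 in BC023105, and it is negative for all 5, down to -1.76 in Chrna1. Choosing genes by r with Thrsp, which was highest under TSLP, favoured these signs. BC023105 and Gbp6 reached the filter signal on the TSLP array only, and Klf15 and Grb14 only there and in PBS distal.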

How the data were processed

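Each array gave 1 intensity per probe set, on a linear scale; the authors made these deposited intensities with MAS5, per the submitters' processing notes. The MAS5 version and a genome build are not given in the sources used here, and detection calls were not used. The trimmed means of the arrays (2% left out at each end) lay between 500.16 and 500.2, and each array was scaled to their mean. Values were taken as log2(signal + 27.4), the offset being the 25th percentile of all values. Of 22690 probe sets, 20380 name 1 gene, 691 several, 64 are controls and 1555 are unnamed here; symbols of 20351 were matched by gene number to RefSeq (GRCm38.p6), which also gave the upstream sequences. The x_at probe sets of Acly can bind related transcripts.

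The comparison of TGF-beta and PBS local used limma 3.58.1 (R 4.3.3; lmFit, eBayes with trend, 6 arrays in 5 groups, Benjamini-Hochberg adjustment over all genes), with 1 residual degree of freedom and the lone PBS local array assumed to vary like the TGF-beta mice. Precision is limited by how few arrays there are. The comparisons of IL-13, TSLP and PBS distal, with 1 array each, were given by size without a test, and the same fit, which lends them the error of the TGF-beta pair, was run on them as an alternative.

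The members and lists were chosen with earlier results of these data known. The text names all 9 genes, the 3 brightest measured genes of each lipid, fat cell, sebaceous gland and keratinocyte list, those past 2-fold, and the genes most and least like Thrsp; Ucp1 and Csn2 were added as defining markers after their values were seen. The pairs TSLP against IL-13 and PBS distal against all outlet arrays were also added then. Alternatives were the offset, the filter, quantile normalization, the choice of probe set and leaving out a TGF-beta mouse.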

Additional observations from a re-analysis of the deposited data

How the results depend on the processing

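Thrsp kept its direction under every alternative tried, from 1.70 to 1.86 under TSLP, 0.84 to 1.00 in PBS distal, -0.66 to -0.45 under IL-13 and 0.25 to 0.66 under TGF-beta. The count of the 8 genes past 2-fold, 1 higher under TSLP and 0 otherwise, did not change in any comparison. Quantile normalization moved 4 of 32 differences of single genes by more than the gene's SD between the TGF-beta mice, the mean of all probe sets 3 of 24 and the dimmest probe set 4 of 16 (genes with more than 1 probe set), all of them values of Scd1. With the dimmest probe set of each gene the genes still tested had medians of -0.23 for TGF-beta, -0.35 for IL-13 and 0.56 in PBS distal, over 6 genes in place of 8. Leaving out a TGF-beta mouse gave medians of -0.11 to 0.037, and over all genes 27 to 143 at least 2-fold higher and 47 to 112 lower, since the rule then asked for 1 mouse only.

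Over all genes, an offset of 0.25 times the main one gave 29 at least 2-fold higher under TGF-beta and 47 lower under IL-13. An offset 4 times the main one gave 6 higher and 5 lower under TGF-beta, 16 lower under IL-13, 18 lower under TSLP, and 33 higher and 172 lower in PBS distal. Without the filter on dim genes 131 were higher under IL-13 and 101 in PBS distal. limma, lending these arrays the error of the TGF-beta pair, called 0 higher and 0 lower under IL-13 and under TSLP, and 0 higher and 2 lower in PBS distal, with 292, 304 and 831 genes at an unadjusted p under 0.05. After quantile normalization these calls were 3 higher and 0 lower under IL-13, 6 higher and 1 lower under TSLP, and 11 higher and 109 lower in PBS distal, where the lowest adjusted p was 2.54e-05, against 0.033 to 0.235 with the other settings. Under TGF-beta limma called 0 with every setting. The 8 genes were among the calls in no comparison and no setting. No paired analysis was possible because only the TGF-beta group has replicate numbers. A single PBS local array stands behind every difference from it, and no alternative could replace it.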
